A study of Mus musculus with 12 samples.

Results

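The genes described here are 41 interferon-stimulated and antigen presentation genes of the mouse, chosen by name for the known roles of their products. Of the 41, 35 have at least 1 probe set annotated to them alone, and these 35 are the members described below, out of 17097 genes that the arrays measure in this way. The remaining 6, Isg15, Oas1a, Bst2, Ifi44, Tap1 and B2m, have no such probe set and were not analysed here. Each gene was read by 1 probe set, the brightest on average, and 12 of the 35 members have more than 1.

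The arrays hold liver RNA of adult Socs2-null mice on a C57BL/6 background and of adult C57BL/6 wildtype mice. Socs2 encodes a suppressor of cytokine signalling that damps the response to growth hormone. The comparisons bear on how its loss alters the liver while it regrows after removal of 2/3 of its mass. There were 6 groups: each genotype without an operation (0 h), 24 h after hepatectomy and 36 h after hepatectomy. Each group holds 2 arrays, and the RNA on each array is a pool of 3 animals, so that the replicates are pools (n = 2), called pool 1 and pool 2, and the spread between single animals is not visible. The labels name no sham operation, so loss of liver tissue cannot be told apart from surgery or anaesthesia in a comparison with 0 h. Neither sex nor time of day is stated in the sources used here. Arrays of the same group correlated at 0.9846 to 0.9953 (Pearson's r across genes) and arrays of different groups at 0.9509 to 0.9946. The Socs2 probe set read 23.1 to 29.5 on the Socs2-null arrays and 116 to 546 on the wildtype arrays, without overlap.

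Levels below are linear intensities as the authors processed them, and they compare a probe set between arrays, not 1 gene with another. Changes are log2 changes of intensity + 16 with their standard error (SE), which understates the change of dim genes, and folds are taken on the same scale, from 1 limma model over all 12 arrays and 17097 genes. Pools of a group are the replicates, so p-values measure the spread between pools. A gene passed the test when its Benjamini-Hochberg adjusted p over all 17097 genes lay under 0.05, and "fell", "rose" and "changed" are used of such genes only. A call lost "without" a pool was no longer past the test when that array was left out of the model, and "without either" pool means with each of them left out in turn. A group was taken as under background for a gene when both its arrays lay under the brightest tag control probe set of the same array, which read 32.96 to 45.01.

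Interferons are secreted proteins that warn cells of infection. Interferons bind receptors coupled to Janus kinases. Type I interferons act on genes that carry the interferon-stimulated response element (ISRE), which is bound by a complex that holds STAT2 and IRF9, and interferon gamma acts on genes that carry the gamma-activated site (GAS). Their targets include antiviral effectors such as the IFIT and MX proteins, GTPases that act on the vacuoles of intracellular pathogens, chemokines that draw T cells, and the immunoproteasome with the peptide loading machinery of MHC class I. In liver, hepatocytes, Kupffer cells, endothelial cells and resident lymphocytes can all express such genes, so whole-liver RNA adds them up. In bulk samples such as these, fewer cells of a type and less RNA per cell cannot be told apart.

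The promoter windows of 6 members are shown because they belong to the genes on which the results below turn. The windows come from RefSeq on GRCm38.p6, run 5′ to 3′ on the gene's strand, and hold 300 bases, 250 before the annotated start and 50 after it. Capitals mark each match, on either strand, to the ISRE core, a pair of GAAA blocks separated by any 2 bases, or to the GAS motif TTCNNNGAA. The first set holds the 4 members with the smallest adjusted p over the comparisons.
Ifit3, chr19:34583279-34583578, plus strand: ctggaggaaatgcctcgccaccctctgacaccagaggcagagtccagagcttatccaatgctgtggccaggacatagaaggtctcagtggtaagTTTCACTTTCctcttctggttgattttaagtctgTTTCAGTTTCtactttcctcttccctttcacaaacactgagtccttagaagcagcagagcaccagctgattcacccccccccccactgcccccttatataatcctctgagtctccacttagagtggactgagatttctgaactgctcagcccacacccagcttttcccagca
Cxcl9, chr5:92328030-92328329, minus strand: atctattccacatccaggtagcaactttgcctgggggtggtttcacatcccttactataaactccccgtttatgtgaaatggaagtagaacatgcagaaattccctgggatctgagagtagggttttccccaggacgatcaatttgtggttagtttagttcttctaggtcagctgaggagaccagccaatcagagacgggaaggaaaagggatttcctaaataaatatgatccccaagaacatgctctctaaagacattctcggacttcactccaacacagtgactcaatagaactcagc
Ifi47, chr11:49076337-49076636, plus strand: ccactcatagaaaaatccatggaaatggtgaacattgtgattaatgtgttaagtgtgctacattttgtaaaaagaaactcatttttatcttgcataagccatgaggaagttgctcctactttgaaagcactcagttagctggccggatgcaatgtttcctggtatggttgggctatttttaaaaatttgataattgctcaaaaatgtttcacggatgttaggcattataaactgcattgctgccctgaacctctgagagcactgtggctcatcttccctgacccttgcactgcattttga
Psmb8, chr17:34197945-34198244, plus strand: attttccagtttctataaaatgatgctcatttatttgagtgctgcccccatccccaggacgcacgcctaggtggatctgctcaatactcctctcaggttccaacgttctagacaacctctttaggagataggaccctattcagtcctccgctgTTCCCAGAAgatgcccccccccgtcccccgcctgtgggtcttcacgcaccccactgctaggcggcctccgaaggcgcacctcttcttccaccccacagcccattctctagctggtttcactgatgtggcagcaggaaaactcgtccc
Ifit3 carries a pair of ISRE matches, both read on the opposite strand, starting 156 and 122 bases before the start. Psmb8 carries a GAS match and no ISRE match, and the Cxcl9 and Ifi47 windows carry neither. That says only that these letters are not in these windows. The second set holds Igtp and Irgm2, a pair of immunity-related GTPase genes that are next to each other in the annotation.
Igtp, chr11:58199306-58199605, plus strand: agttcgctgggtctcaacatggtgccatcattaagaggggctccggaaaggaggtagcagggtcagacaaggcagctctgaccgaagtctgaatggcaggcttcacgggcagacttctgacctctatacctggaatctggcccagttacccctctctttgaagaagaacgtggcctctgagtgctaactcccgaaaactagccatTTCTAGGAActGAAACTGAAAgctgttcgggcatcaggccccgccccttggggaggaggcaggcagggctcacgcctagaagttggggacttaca
Irgm2, chr11:58214727-58215026, plus strand: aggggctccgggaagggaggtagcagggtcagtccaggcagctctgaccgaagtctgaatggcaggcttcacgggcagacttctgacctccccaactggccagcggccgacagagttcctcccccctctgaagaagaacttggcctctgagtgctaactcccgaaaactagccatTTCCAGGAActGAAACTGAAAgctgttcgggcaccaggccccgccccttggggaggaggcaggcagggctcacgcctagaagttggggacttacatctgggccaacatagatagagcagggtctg
In both windows a GAS match is followed by an ISRE match whose first base lies 11 bases further on. The GAS match starts 45 bases before the start of Igtp and 75 before the start of Irgm2. With the windows shifted by 30 bases against each other, 184 of 270 bases (68.1%) are identical, and the ISRE match sits in an identical run of 29 bases.

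Of the 41 genes, 33 have a RefSeq window, some of them more than 1. At least 1 window held an ISRE match in 16 of these 33 genes (48.5%), against 3.99% of all 27025 genes in the RefSeq table. A GAS match was found in 9 of the 33 genes (27.3%), against 9.55% of all genes. No match of one motif overlapped a match of the other, except in Bst2. Among the 27 measured members with a window, 6 of the 13 that fell in wildtype liver at 24 h and 6 of the 14 that did not pass the test there carried an ISRE match.

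The members that passed the test against 0 h were, with 1 exception, lower in the operated livers of both genotypes. In Socs2-null liver 10 of the 35 members fell at 24 h and none rose, against 13.5% of all genes that fell and 10.8% that rose. In wildtype liver 16 of 35 fell at 24 h and none rose, against 15.6% of all genes that fell and 10.2% that rose. At 36 h, 8 members fell and 1 rose in Socs2-null liver (10.1% and 9.84% of all genes), and 9 fell and none rose in wildtype liver (9.50% and 5.69% of all genes). The median log2 change of the members was -0.33 in Socs2-null and -0.56 in wildtype liver at 24 h, and -0.17 in Socs2-null and -0.35 in wildtype liver at 36 h. The median over all genes in these comparisons lay between -0.03 and -0.08. The comparisons of a genotype share their 0 h arrays, so they are not independent of each other.

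**Figure D1:**
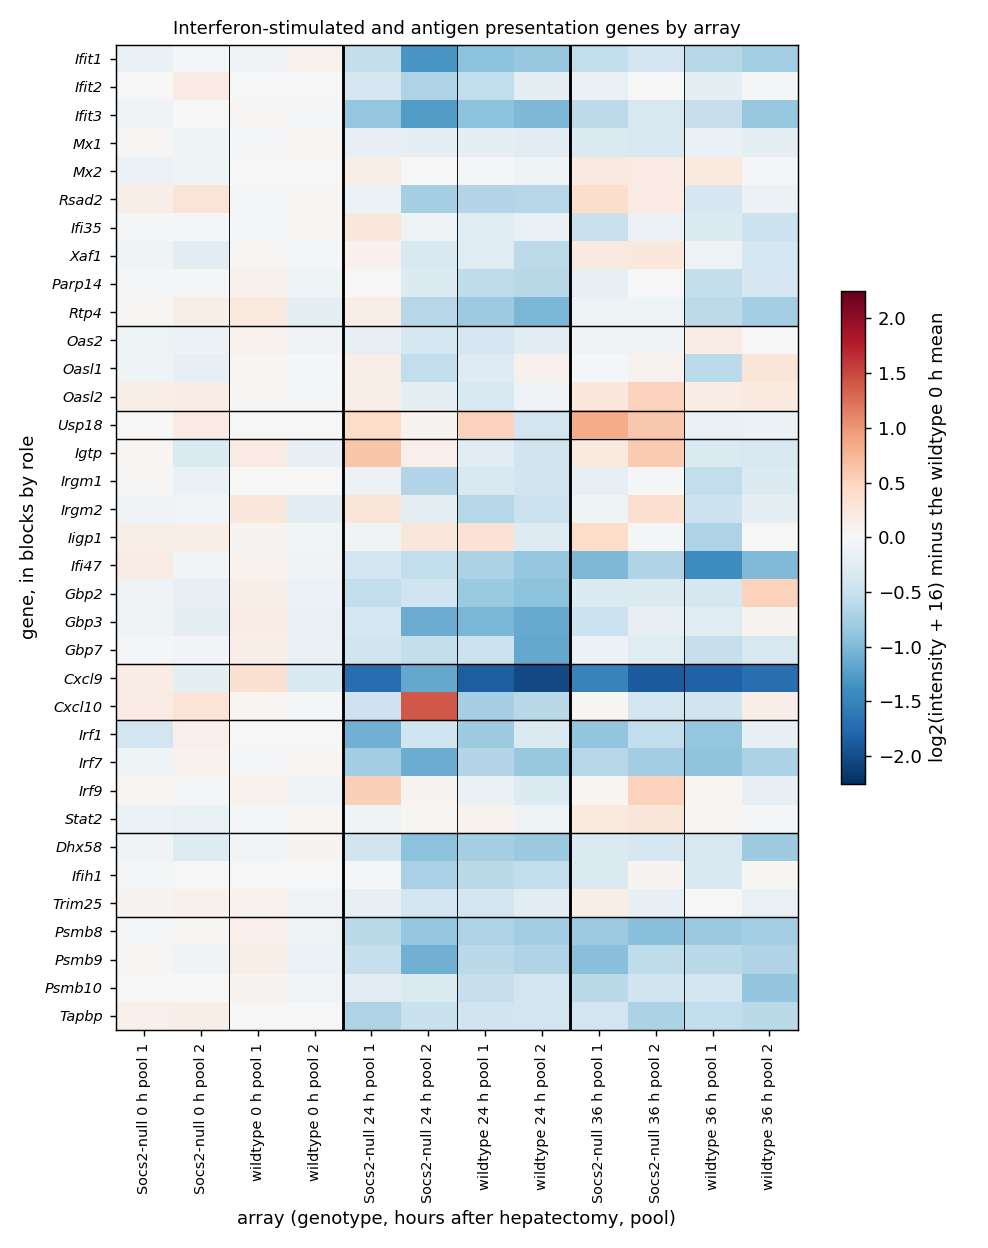
Each row is 1 of the 35 members, in blocks by role, and each column 1 array. Colour gives log2(intensity + 16) minus the mean of the 2 wildtype 0 h arrays, from blue (lower) to red (higher). Most rows are blue on the 24 h arrays, Cxcl9 is among the bluest rows at both times, and pool 2 of Socs2-null liver at 24 h is bluer than pool 1 in most rows, with Cxcl10 the reverse.

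The chemokine Cxcl9, an interferon gamma target that attracts activated T cells, fell furthest of the members in all 4 comparisons with 0 h. In Socs2-null liver it read 281 and 213 at 0 h, with 64.7 and 103 at 24 h and with 77.4 and 56.9 at 36 h. In wildtype liver it read 320 and 194 at 0 h, with 57.1 and 48.8 at 24 h and with 59.5 and 66.2 at 36 h. All 8 arrays after hepatectomy lay under all 4 arrays at 0 h, and the genotypes overlapped at 0 h and at 36 h. The log2 change against 0 h was -1.41 ± 0.24 in Socs2-null liver at 24 h (limma adjusted p = 0.00242, 2.66-fold lower) and -1.95 ± 0.24 in wildtype liver at 24 h (limma adjusted p = 0.000682, 3.86-fold lower). At 36 h it was -1.66 ± 0.24 in Socs2-null liver (limma adjusted p = 0.00119) and -1.76 ± 0.24 in wildtype liver (limma adjusted p = 0.00127). None of these 4 calls was lost under any alternative tried or with any array left out.

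Its relative Cxcl10, which binds the same receptor, did not pass the test against 0 h in the model of all arrays. Socs2-null liver read 82.5 and 91.8 at 0 h, with 46.8 and 213 at 24 h and with 72.4 and 49.3 at 36 h. Wildtype liver read 73.6 and 68.5 at 0 h, with 35.8 and 40.8 at 24 h, where both arrays lay under background, and with 47.7 and 80.1 at 36 h. Against 0 h, the wildtype change at 24 h passed with only the arrays compared or without either Socs2-null 24 h pool (limma adjusted p = 0.00197, 0.0227 and 0.0226). The Socs2-null level at 24 h passed as higher without its pool 1 (limma adjusted p = 0.00619). Pool 2 of Socs2-null liver at 24 h, the high one, also stood apart in some neutrophil markers. The summed intensity of 8 such markers was 475 in pool 1 and 2017 in pool 2, against 419 to 701 on the other 10 arrays. Most of the sum in pool 2 came from S100a8, a neutrophil calcium-binding protein (96.3 and 655), and S100a9 (127 and 953). Camp and Mmp8 were also highest in pool 2, with 73.7 and 106. Ngp, Cxcr2, Ltf and Elane did not stand apart there, with 62.8, 57.1, 27 and 82.3. The part of neutrophils in the Cxcl10 value was not tested.

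Among the IFIT proteins, which bind viral RNA and block its translation, Ifit1 and Ifit3 fell at 24 h in both genotypes. Ifit3 read 197 and 210 at 0 h, with 107 and 78.3 at 24 h and with 134 and 158 at 36 h in Socs2-null liver. In wildtype liver it read 213 and 204 at 0 h, with 103 and 95.4 at 24 h and with 140 and 108 at 36 h. Thus the 24 h arrays lay lowest and the 36 h arrays between them and the 0 h arrays, in both genotypes. At 24 h the log2 change was -1.03 ± 0.16 in Socs2-null liver (limma adjusted p = 0.00128) and -0.97 ± 0.16 in wildtype liver (limma adjusted p = 0.00219), and both calls held with every array left out. At 36 h it was -0.44 ± 0.16 in Socs2-null liver (limma adjusted p = 0.0724, but 0.0428 and 0.0429 without either Socs2-null 24 h pool) and -0.69 ± 0.16 in wildtype liver (limma adjusted p = 0.0151), a call lost without wildtype 0 h pool 1, 0 h pool 2 or 36 h pool 2 (adjusted p 0.0902 to 0.12). The direct comparison of 36 h with 24 h did not pass the test in either genotype.

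Ifit1 read 135 and 148 at 0 h, with 100 and 52 at 24 h and with 98.2 and 108 at 36 h in Socs2-null liver. It read 143 and 161 at 0 h, with 72.8 and 76.7 at 24 h and with 91.4 and 83 at 36 h in wildtype liver. Its log2 change at 24 h was -0.82 ± 0.20 in Socs2-null and -0.88 ± 0.20 in wildtype liver, with limma adjusted p = 0.0125 and 0.00947. The Socs2-null call was lost with only the arrays compared and without 0 h pool 2 or 24 h pool 2, and the wildtype call without 0 h pool 2 or 24 h pool 1. Ifit2 fell at 24 h in Socs2-null liver, by 0.62 ± 0.14 on the log2 scale (limma adjusted p = 0.01), a call lost without Socs2-null 0 h pool 2 or 24 h pool 2. In wildtype liver its change at 24 h was -0.39 ± 0.14 (limma adjusted p = 0.0666), and it passed in 4 settings, such as without wildtype 24 h pool 2 (0.0451). At 36 h Ifit1 fell in wildtype liver, by 0.70 ± 0.20 on the log2 scale (limma adjusted p = 0.0362), a call lost after centring on array medians and without any 1 of 8 arrays.

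The other antiviral effectors split. Rsad2, which makes a chain-terminating nucleotide, fell at 24 h in both genotypes, by 0.67 ± 0.18 in Socs2-null and 0.65 ± 0.18 in wildtype liver on the log2 scale (limma adjusted p = 0.0203 and 0.0224). At 36 h it read 210 and 180 in Socs2-null liver, against 175 and 194 at 0 h, and 117 and 140 in wildtype liver, against 152 and 160 at 0 h. The 24 h call in wildtype liver was lost with any 1 of the 4 wildtype arrays compared left out, and after centring on array medians. The one in Socs2-null liver was lost with only the arrays compared, without either 0 h pool and without 24 h pool 2. Parp14, an ADP-ribosyltransferase, and Rtp4, a chaperone that binds membrane receptors, fell in wildtype liver at 24 h, by 0.60 ± 0.14 and 0.92 ± 0.23 on the log2 scale (limma adjusted p = 0.0121 and 0.0138). Both calls were lost without wildtype 0 h pool 1 or 24 h pool 2, and that of Parp14 also after centring on array medians. At 36 h both passed as lower in wildtype liver in 7 settings for Parp14 and 5 for Rtp4 (limma adjusted p 0.0149 to 0.0448), though not in the model of all arrays. In Socs2-null liver the changes at 24 h were -0.10 for Parp14 and -0.32 for Rtp4 and did not pass the test (Rtp4 passed without Socs2-null 24 h pool 1, limma adjusted p = 0.0242), but the difference between the genotypes in the 24 h change did not pass either (Parp14: 0.49 ± 0.20, limma adjusted p = 1).

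Mx1 and Mx2, members of the dynamin-like antiviral GTPases, are annotated as transcribed pseudogenes in the C57BL/6J reference (GRCm38.p6), and both were dim. Mx1 read 33 to 49.5 over all arrays and lay under background on 5 of 12. It fell in Socs2-null liver at 36 h (log2 change -0.31 ± 0.09, limma adjusted p = 0.0315), a call lost with only the arrays compared and when any 1 of these 4 was left out. Mx2 read 49.6 to 67.9 and did not pass the test in any comparison, though at 36 h in Socs2-null liver it passed as higher in 5 alternative settings (limma adjusted p 0.0454 to 0.0473). Neither Ifi35 nor Xaf1 passed, nor any of the 3 measured members of the oligoadenylate synthetase family (Oas2, Oasl1 and Oasl2), whose enzymes or enzyme-like proteins sense double-stranded RNA. Xaf1 and Oas2 passed as lower in wildtype liver at 24 h without either Socs2-null 24 h pool (limma adjusted p 0.0432 to 0.0473).

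The immunity-related GTPases (IRG) and guanylate-binding proteins (GBP) act on membranes around intracellular pathogens. Of the 8 measured, 4 fell in wildtype liver at 24 h: Gbp3 (log2 change -1.09 ± 0.22), Gbp2 (-0.88 ± 0.22), Gbp7 (-0.82 ± 0.19) and Ifi47 (-0.79 ± 0.17), with limma adjusted p between 0.00588 and 0.017. Each of these calls was lost without wildtype 0 h pool 1, those of Gbp7 and Ifi47 also without 24 h pool 2, and that of Gbp2 with any of the 4 arrays compared left out. In Socs2-null liver Ifi47 alone of the 8 passed the test at 24 h. Gbp3 read 78.1 and 40.9 at 24 h in Socs2-null liver, against 101 and 91 at 0 h, and 44.1 and 39.9 at 24 h in wildtype liver, against 122 and 93.7 at 0 h. Its Socs2-null change at 24 h passed without pool 1 (limma adjusted p = 0.00545), and those of Gbp2 and Gbp7 without either wildtype 36 h pool and without either wildtype 24 h pool (0.0375 to 0.0416). Gbp2 read 68.8 and 143 in wildtype liver at 36 h, against 105 and 84.8 at 0 h, so that the groups overlapped.

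Ifi47 was the GTPase that fell in all 4 comparisons with 0 h. It read 785 and 666 at 0 h, with 513 and 471 at 24 h and with 338 and 430 at 36 h in Socs2-null liver, and 739 and 660 at 0 h, with 421 and 376 at 24 h and with 251 and 344 at 36 h in wildtype liver. The arrays of the 3 times did not overlap within either genotype, with 36 h lowest. The log2 change at 36 h was -0.90 ± 0.17 in Socs2-null (limma adjusted p = 0.0044) and -1.20 ± 0.17 in wildtype liver (limma adjusted p = 0.0014), and neither call was lost in any alternative. The 24 h change in Socs2-null liver, -0.54 ± 0.17 (limma adjusted p = 0.0406), was lost under 3 processing alternatives and without any 1 of 8 arrays. Iigp1, which read 3052 to 6608 over all arrays, and Irgm1 did not pass the test in any comparison. Irgm1 passed as lower against 0 h without either Socs2-null 24 h pool in wildtype liver at 24 h and 36 h, and without pool 1 in Socs2-null liver at 24 h (limma adjusted p 0.0223 to 0.0451).

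**Figure D2:**
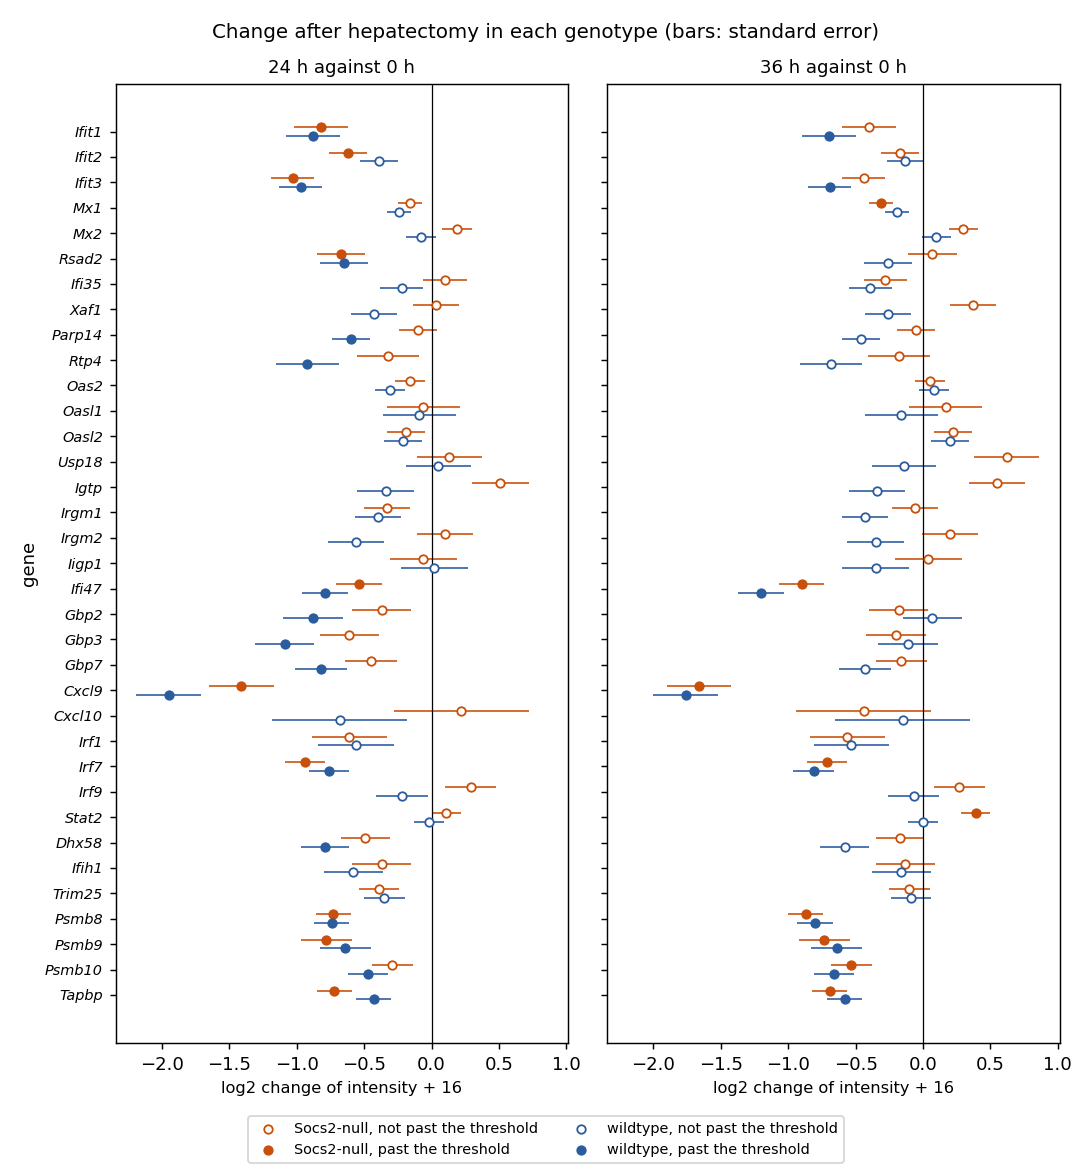
Each row is a member and each panel a time against 0 h. Points give the log2 change of intensity + 16 and bars its standard error, in orange for Socs2-null and in blue for wildtype liver; filled points passed the test. Cxcl9 lies furthest left in both panels and the 4 antigen processing genes at the bottom lie left of 0 throughout.

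Among the transcription factors, Irf7, which amplifies type I interferon production, fell in all 4 comparisons. It read 231 and 263 at 0 h, with 138 and 105 at 24 h and with 152 and 137 at 36 h in Socs2-null liver, and 239 and 256 at 0 h, with 151 and 129 at 24 h and with 124 and 145 at 36 h in wildtype liver. Every operated array lay under every 0 h array. The log2 change ran from -0.94 ± 0.15 in Socs2-null liver at 24 h (limma adjusted p = 0.0015) to -0.71 ± 0.15 in Socs2-null liver at 36 h (limma adjusted p = 0.00734), with -0.76 and -0.81 in wildtype liver at 24 h and 36 h. The call in Socs2-null liver at 36 h was lost without its 0 h pool 2 (adjusted p = 0.0715), and both wildtype calls without wildtype 0 h pool 2 (0.0539 and 0.0654).

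Stat2, a subunit of the ISRE-binding complex, was the single member that rose against 0 h, in Socs2-null liver at 36 h (123 and 129, against 93.8 and 91.4 at 0 h; log2 change 0.39 ± 0.11, limma adjusted p = 0.031). Its other probe set, also above background on all arrays, went the other way, the mean of both gave an adjusted p of 0.625, and the call was also lost with only the arrays compared and without any 1 of 6 arrays. Irf9, the DNA-binding subunit of the same complex, and Irf1, a factor induced by interferon gamma, did not pass the test, but Irf1 passed in 3 comparisons with 0 h under a replicate block (limma adjusted p 0.0265 to 0.0414). Irf1 read 338 and 496 at 0 h in Socs2-null liver and 209 to 331 on its operated arrays, and 460 and 459 at 0 h in wildtype liver and 244 to 401 on its operated arrays.

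Of the 3 RNA sensing genes, Dhx58, which encodes the sensor LGP2, fell in wildtype liver at 24 h (88.7 and 82.2, against 153 and 167 at 0 h; log2 change -0.79 ± 0.18, limma adjusted p = 0.00951). This call was lost without wildtype 0 h pool 2 or 24 h pool 2. Dhx58 also passed as lower in Socs2-null liver at 24 h in 4 settings (limma adjusted p 0.0175 to 0.0463) and in wildtype liver at 36 h in 7 settings (0.0252 to 0.0471). Ifih1, the sensor MDA5, read 448 and 267 in Socs2-null liver at 24 h, against 447 and 457 at 0 h, and 293 and 306 in wildtype liver at 24 h, against 451 and 457 at 0 h, and did not pass the test in either genotype. Its wildtype change passed with only the arrays compared and without either Socs2-null 24 h pool (limma adjusted p = 0.00366 and 0.0217), and its Socs2-null change without pool 1 (0.0228). Trim25, a ubiquitin ligase that activates RIG-I, did not pass either, except in wildtype liver at 24 h with only the arrays compared (limma adjusted p = 0.0399).

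Most calls among the antigen processing genes were made in both genotypes and at both times. Psmb8, Psmb9 and Psmb10 encode the catalytic subunits that turn the standard proteasome into the immunoproteasome, and Tapbp encodes tapasin, which holds MHC class I molecules at the peptide transporter. In Socs2-null liver 3 of these 4 fell at 24 h and all 4 at 36 h, and in wildtype liver all 4 fell at both times. None of the 4 had a higher mean than at 0 h in any of these comparisons. Leaving out wildtype 0 h pool 1 ended 3 of the 4 wildtype calls at 24 h and all 4 at 36 h.

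Psmb8 read 403 and 424 at 0 h, with 269 and 221 at 24 h and with 229 and 210 at 36 h in Socs2-null liver. It read 450 and 386 at 0 h, with 251 and 235 at 24 h and with 227 and 240 at 36 h in wildtype liver. Every operated array lay under every 0 h array. The log2 change was -0.73 ± 0.13 in Socs2-null and -0.74 ± 0.13 in wildtype liver at 24 h, and -0.87 ± 0.13 in Socs2-null and -0.80 ± 0.13 in wildtype liver at 36 h, with limma adjusted p between 0.00143 and 0.00348. Of these calls the wildtype one at 36 h was lost without wildtype 0 h pool 1 (adjusted p = 0.0508).

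Tapbp read 974 and 983 at 0 h, with 548 and 632 at 24 h and with 666 and 543 at 36 h in Socs2-null liver. It read 889 and 911 at 0 h, with 653 and 672 at 24 h and with 610 and 583 at 36 h in wildtype liver. The log2 changes were -0.72 ± 0.13 in Socs2-null and -0.43 ± 0.13 in wildtype liver at 24 h, and -0.69 ± 0.13 in Socs2-null and -0.58 ± 0.13 in wildtype liver at 36 h, all past the test. Both Socs2-null calls held under every alternative. Both wildtype calls were lost with the mean of the Tapbp probe sets (limma adjusted p 0.0735 and 0.0914), without either wildtype 0 h pool and without at least 1 other array. The one at 24 h was also lost after centring on array medians (0.104). The other Tapbp probe set, dimmer but above background on all arrays, gave log2 differences of -0.16 at 24 h and -0.00 at 36 h in Socs2-null liver. In wildtype liver it gave -0.15 and -0.02.

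Psmb9 fell by 0.78 ± 0.19 in Socs2-null and 0.64 ± 0.19 in wildtype liver at 24 h and by 0.73 ± 0.19 in Socs2-null and 0.64 ± 0.19 in wildtype liver at 36 h on the log2 scale (limma adjusted p 0.0118 to 0.0401). Psmb10 passed the test in 3 of the 4 comparisons. In Socs2-null liver at 24 h, where it did not pass, it read 519 and 491, against 623 and 621 at 0 h. Calls of both genes were lost in each comparison without at least 1 of the arrays compared, and their wildtype calls at 24 h also after centring on array medians. The Psmb9 wildtype call at 36 h was also lost after centring and with the mean of its probe sets (limma adjusted p = 0.0888 and 0.0677). Leaving out single arrays of groups not compared ended it too. The Psmb9 call in Socs2-null liver at 24 h was also lost with only the arrays compared (limma adjusted p = 0.0536).

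Many calls were made in both genotypes. At 24 h, 9 members fell in both, which is 90% of the 10 in Socs2-null and 56.2% of the 16 in wildtype liver. At 36 h, 7 fell in both, 87.5% of the 8 in Socs2-null and 77.8% of the 9 in wildtype liver. The overlap of calls over all genes was not counted, so these shares cannot be called particular to the members. All 4 operated arrays lay below both 0 h arrays for 14 members in Socs2-null liver (25.8% of all genes did) and for 21 members in wildtype liver (31.1% of all genes). They lay above both for 3 members in Socs2-null liver, namely Mx2, Igtp and Stat2 (21.5% of all genes), and for none in wildtype liver (17.3%). Between 36 h and 24 h no member passed limma's test in either genotype, with 6 of 35 under an unadjusted p of 0.05 in Socs2-null (7.18% of all genes) and 6 of 35 in wildtype liver (14.9% of all genes). Adjusted, 0.00585% of all genes passed in Socs2-null and 0.240% in wildtype liver. Gbp3 came nearest among the members, with a log2 change of 0.98 ± 0.22 in wildtype liver (limma adjusted p = 0.104, and 0.0229 and 0.0236 without either Socs2-null 24 h pool).

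**Figure D3:**
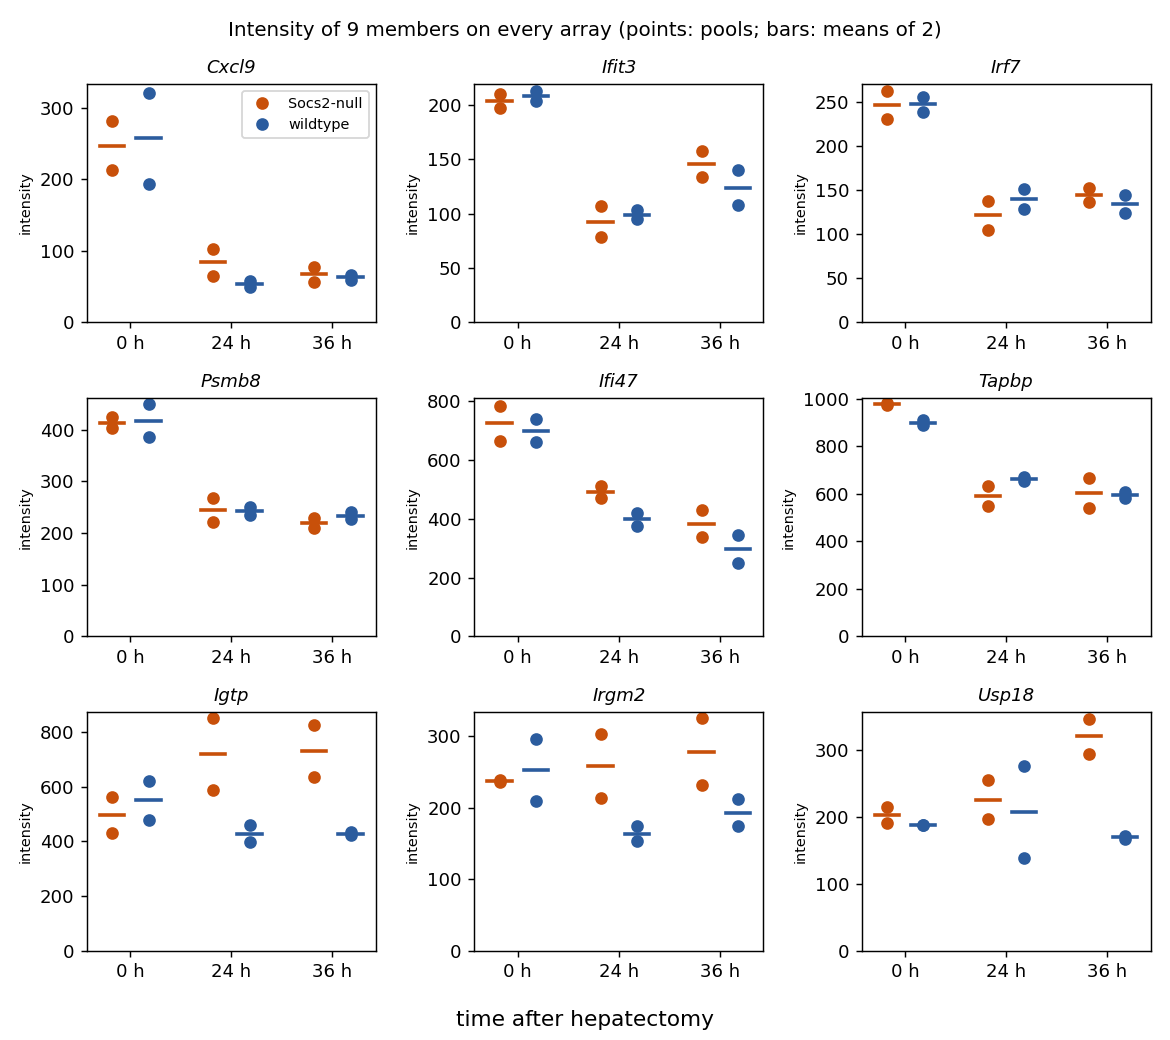
Intensity of 9 members on every array, by hours after hepatectomy, with Socs2-null in orange and wildtype in blue; points are pools of 3 animals and bars the mean of 2. Cxcl9, Ifit3, Irf7, Psmb8, Ifi47 and Tapbp fell at 24 h in both genotypes. Igtp, Irgm2 and Usp18 show higher Socs2-null pools at 36 h, none of them past the test.

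No member passed limma's test between Socs2-null and wildtype liver at any time. At 0 h no member reached an unadjusted p under 0.05 (4.95% of all genes did). At 24 h 6 of 35 reached it (8.24% of all genes), at 36 h 7 of 35 (6.44%), and for the average over the times 8 of 35 (10.2%). Adjusted over all genes, 0.00% of genes passed at 0 h, 0.0117% at 24 h, 0.0234% at 36 h and 0.0292% for the average. The mean was higher in Socs2-null than in wildtype liver for 11 members at 0 h, 26 at 24 h and 27 at 36 h, and the median log2 change was -0.03, 0.17 and 0.18, against -0.04, -0.02 and -0.01 over all genes. Both Socs2-null arrays lay above both wildtype arrays for 6 members at 0 h (13.9% of all genes), 13 at 24 h (15.0%) and 12 at 36 h (15.2%), and below them for 7 (27.9%), 1 (19.1%) and 2 (17.6%).

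Igtp, an IRG protein that guards against vacuolar parasites, had the smallest p at 24 h. It read 850 and 589 in Socs2-null liver at 24 h, against 458 and 396 in wildtype liver, and 634 and 826 in Socs2-null liver at 36 h, against 433 and 423 in wildtype liver. The arrays of the genotypes were apart at both of these times and overlapped at 0 h, with 561 and 430 in Socs2-null liver and 621 and 478 in wildtype liver. The log2 change was 0.71 ± 0.21 at 24 h (limma adjusted p = 0.443) and 0.74 ± 0.21 at 36 h (limma adjusted p = 0.514). The difference between the genotypes in the change against 0 h was 0.86 ± 0.29 at 24 h and 0.88 ± 0.29 at 36 h, with limma adjusted p = 1 and 0.999. Of the 35 members, 3 at 24 h and 4 at 36 h reached an unadjusted p under 0.05 for this difference (3.78% and 3.74% of all genes), and none passed adjusted (0.00% and 0.00585% of all genes). Within Socs2-null liver, Igtp was higher at 24 h than at 0 h by 0.51 ± 0.21 (limma adjusted p = 0.0941, and 0.0369 without 24 h pool 2). Between genotypes, Igtp did not pass the test at 24 h or 36 h under any alternative or with any array left out.

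Irgm2, the neighbour of Igtp with the like promoter window, read 236 and 238 in Socs2-null liver at 0 h, against 296 and 209 in wildtype liver, where the groups overlapped. At 24 h it read 303 and 214 in Socs2-null liver, against 153 and 174 in wildtype liver. At 36 h it read 231 and 325 in Socs2-null liver, against 174 and 212 in wildtype liver. The arrays did not overlap at 24 h or 36 h. The log2 change between genotypes, 0.60 ± 0.21 at 24 h and 0.48 ± 0.21 at 36 h, did not pass limma's test (adjusted p = 0.509 and 0.753). Against 0 h, the wildtype change of Irgm2 at 24 h was -0.56. It passed as lower with only the arrays compared (limma adjusted p = 0.0339), though not in the model of all arrays. All 8 IRG and GBP genes had a higher mean in Socs2-null than in wildtype liver at 24 h, with a median log2 change of 0.33, against 45.9% of all genes with a higher mean. Taken singly, 7 of 8 in pool 1 and 6 of 8 in pool 2 lay above the wildtype mean, the exceptions being Iigp1 in pool 1 and Irgm1 and Gbp3 in pool 2. The count of 8 also depends on the probe set read for Iigp1. Its other probe set, above background on all arrays, gave -0.21 at 24 h, against 0.07 for the one used. Those of Gbp2 and Gbp7 were higher in Socs2-null liver, by 0.13 and 0.23. At 36 h the mean was higher for 6 of 8, against 47.6% of all genes, with Gbp2 and Gbp3 lower.

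Usp18, the protease that removes ISG15 from proteins and damps the type I interferon receptor, had the smallest p at 36 h. It read 346 and 294 in Socs2-null liver and 167 and 171 in wildtype liver at 36 h, a log2 change of 0.86 ± 0.24 (limma adjusted p = 0.507). At 24 h it read 255 and 196 in Socs2-null liver, against 275 and 138 in wildtype liver, where the groups overlapped. Against 0 h, its Socs2-null level at 36 h did not pass, but it did with only the arrays compared (limma adjusted p = 0.0336) and without either wildtype 24 h pool (0.0173 and 0.0174). Rtp4 read 475 and 270 in Socs2-null liver at 24 h, against 237 and 201 in wildtype liver, and 396 and 400 in Socs2-null liver at 36 h, against 278 and 244 in wildtype liver. Its arrays were apart at both times, with log2 changes of 0.68 ± 0.23 and 0.58 ± 0.23 (limma adjusted p = 0.486 and 0.69). Parp14, Rsad2, Xaf1 and Irf9 also had an unadjusted p under 0.05 at 24 h or 36 h, all higher in Socs2-null liver, with log2 changes from 0.37 to 0.55. The other Parp14 probe set, above background on all arrays, went the other way, with -0.25 at 24 h and -0.19 at 36 h. That of Xaf1, dimmer and under background on 2 arrays, gave -0.04 and -0.07. That of Rtp4, also dimmer and under background on 2 arrays, gave 0.05 and 0.08. The other Rsad2 probe sets were higher in Socs2-null liver at both times.

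**Figure D4:**
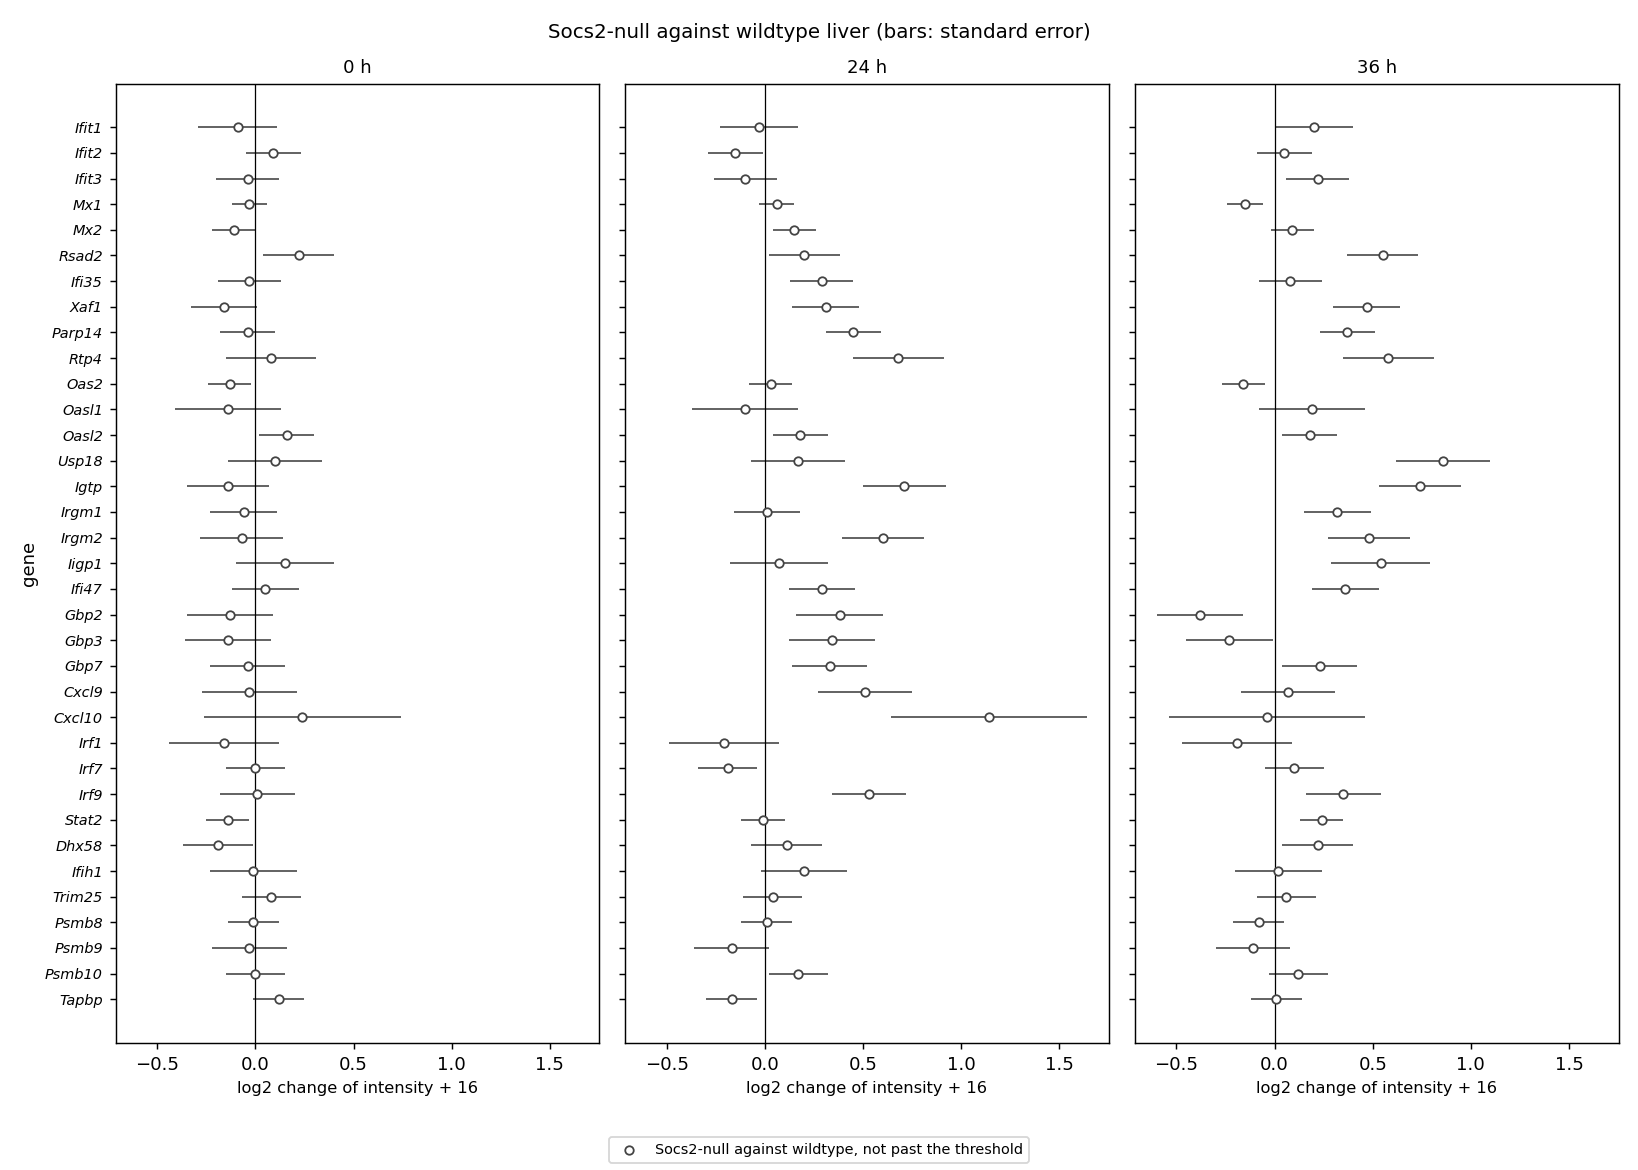
Log2 change of intensity + 16 of each member in Socs2-null against wildtype liver at 0 h, 24 h and 36 h, with the standard error as bars. Points centre near 0 at 0 h, and more lie to the right at 24 h and 36 h. All points are open, since no member passed the test.

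Between genotypes at 24 h, the Cxcl10 mean was at least 2.1-fold higher in Socs2-null than in wildtype liver, where both arrays were under background, with a log2 change of 1.14 ± 0.50 (limma adjusted p = 0.606). Without Socs2-null 24 h pool 1 the log2 change was 2.08 and passed the test (limma adjusted p = 0.00748), resting on the pool that read 213. For most other members pool 1 was the higher: in Socs2-null liver at 24 h, 28 of 35 members were higher in pool 1 than in pool 2, by a median of 0.33 on the log2 scale, while the median over all genes was -0.06. In the other 5 groups the median of the members lay between -0.07 and 0.07. The median difference between Socs2-null and wildtype liver at 24 h, 0.17, ran from 0.04 to 0.27 over the 12 arrays left out in turn.

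The probe sets that were not used gave a check within a gene. There were 15 of these, 8 above background on all arrays. For the wildtype change at 24 h against 0 h all 8 had the sign of the probe set used, and for the Socs2-null change 7 of 8. At 36 h against 0 h it was 6 of 8 in wildtype and 5 of 8 in Socs2-null liver. For Socs2-null against wildtype liver 3 of 8 had the same sign at 24 h and 6 of 8 at 36 h.

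Beyond the members, most of the MHC class II presentation genes fell. These proteins show extracellular peptides to helper T cells and are expressed by professional antigen-presenting cells. Of 8 measured, 6 fell in Socs2-null and 6 in wildtype liver at 24 h, and 6 in Socs2-null and 5 in wildtype liver at 36 h, and none rose. Of all genes, 13.5% fell in Socs2-null and 15.6% in wildtype liver at 24 h, and 10.1% in Socs2-null and 9.50% in wildtype liver at 36 h. Ciita lay under background on all arrays. H2-Eb1, a class II beta chain, read 311 and 276 at 0 h, with 86.5 and 75.5 at 24 h and with 91.7 and 78.8 at 36 h in Socs2-null liver, and 360 and 245 at 0 h, with 137 and 88 at 24 h and with 73.9 and 81.8 at 36 h in wildtype liver. Its log2 change was -1.68 ± 0.20 in Socs2-null and -1.31 ± 0.20 in wildtype liver at 24 h, and -1.61 ± 0.20 in Socs2-null and -1.74 ± 0.20 in wildtype liver at 36 h (limma adjusted p 0.000365 to 0.00179). H2-Aa, a class II alpha chain, also fell in the 4 comparisons, with log2 changes of -1.47 in Socs2-null and -1.52 in wildtype liver at 24 h and -1.54 in Socs2-null and -2.23 in wildtype liver at 36 h. All 8 of these calls on H2-Eb1 and H2-Aa held under every alternative and with each array left out.

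The counts for the class I pathway lay nearer to those shares. Of 12 measured genes of class I, its loading and the immunoproteasome activator, 2 fell and 2 rose in Socs2-null liver and 3 fell and 1 rose in wildtype liver at 24 h, and 3 fell and 1 rose in Socs2-null liver and 1 fell and 1 rose in wildtype liver at 36 h. The shares of all genes that rose were 10.8% in Socs2-null and 10.2% in wildtype liver at 24 h, and 9.84% in Socs2-null and 5.69% in wildtype liver at 36 h. H2-T23, a nonclassical class I molecule, fell by 0.74 to 0.80 on the log2 scale in all 4 comparisons, each lost with the mean of its probe sets. Calr, the chaperone calreticulin, which also serves protein folding at large, rose by 0.57 to 0.88, a call lost in wildtype liver at 36 h in 3 settings. The classical H2-K1 and H2-D1 did not pass the test.

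Of 35 other interferon-stimulated genes, 5 fell and 2 rose in Socs2-null and 11 fell and 3 rose in wildtype liver at 24 h, and 4 fell and 4 rose in Socs2-null and 4 fell and 3 rose in wildtype liver at 36 h. Of all genes, 13.5% fell and 10.8% rose in Socs2-null and 15.6% fell and 10.2% rose in wildtype liver at 24 h. At 36 h, 10.1% fell and 9.84% rose in Socs2-null and 9.50% fell and 5.69% rose in wildtype liver. The 11 of 35 that fell in wildtype liver at 24 h lay above that share, and the other counts lay nearer to theirs. Mov10, an RNA helicase, fell in all 4 comparisons by 0.47 to 0.60 on the log2 scale, with both wildtype calls lost in 3 settings and the Socs2-null one at 36 h in 1. Tor3a, a torsin ATPase, rose in all 4 by 0.68 to 1.02, all lost without probe sets whose names end in _a_at, _s_at or _x_at. Ifitm2, a membrane protein that blocks virus entry, rose in all 4 by 0.46 to 0.69, with the 36 h calls lost in 2 (Socs2-null) and 3 (wildtype) settings.

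Of 14 ligands, receptors and signalling genes, 3 fell and 1 rose in Socs2-null and 4 fell and none rose in wildtype liver at 24 h. At 36 h, 2 fell and 1 rose in each genotype. Of all genes, 13.5% fell and 10.8% rose in Socs2-null and 15.6% fell and 10.2% rose in wildtype liver at 24 h. The shares at 36 h were 10.1% and 9.84% in Socs2-null and 9.50% and 5.69% in wildtype liver. Ifna1, Ifna4, Ifnb1, Ifng and Ifnlr1 lay under background on all arrays, and the 24 h counts include Ifna1. The probe set annotated to Ifna2 read 284 and 243 at 0 h, with 86.2 and 91.2 at 24 h and with 132 and 118 at 36 h in Socs2-null liver. It read 299 and 313 at 0 h, with 108 and 129 at 24 h and with 119 and 99.3 at 36 h in wildtype liver. It fell by 0.99 to 1.41 on the log2 scale, and no alternative ended a call. Interferon alpha genes are a family of near-identical copies, so which copy this probe set reads is uncertain. Of 13 nucleic acid sensor and induction genes, 2 fell and 2 rose in Socs2-null and 3 fell and 2 rose in wildtype liver at 24 h, and 1 fell and 2 rose in Socs2-null and 2 fell and none rose in wildtype liver at 36 h, counts near the share over all genes, with Irf5, a transcription factor of myeloid cells, lower in all 4, each lost in 2 to 5 settings. Of 8 feedback inhibitors none fell. Ptpn1, a phosphatase that acts on JAK2 and TYK2, rose at 24 h in both genotypes, and Ptpn2, a related phosphatase that acts on JAK1, in wildtype liver at 24 h, calls that 7 to 13 settings ended. These counts on 8 genes stand beside the shares of all genes given above, and no difference from those shares was tested. No gene of these 6 lists passed the test between genotypes at 24 h or 36 h.

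Markers of other cell types changed on the same arrays. Clec4f, the defining marker of Kupffer cells, read 741 and 760 at 0 h, with 434 and 360 at 24 h and with 387 and 436 at 36 h in Socs2-null liver, and 690 and 713 at 0 h, with 428 and 447 at 24 h and with 401 and 357 at 36 h in wildtype liver. Of 13 Kupffer cell and macrophage markers 4 fell and 2 rose in Socs2-null and 3 fell and 2 rose in wildtype liver at 24 h. Of all genes, 13.5% fell and 10.8% rose in Socs2-null and 15.6% fell and 10.2% rose in wildtype liver at 24 h. Marco, a macrophage scavenger receptor, rose by 2.82 to 3.19 on the log2 scale over the 4 comparisons with 0 h. The summed intensity of the 13 ranged from 6635 to 9803 on the operated arrays and from 6669 to 8000 at 0 h. For 6 B cell markers the sum was 191 to 218 in Socs2-null liver after hepatectomy, against 257 to 269 at 0 h, and 189 to 225 in wildtype liver after hepatectomy, against 276 to 280 at 0 h, with Ighm under background on all arrays. For 14 T and NK cell markers it was 511 to 583 in Socs2-null liver after hepatectomy, against 599 to 605 at 0 h, and 520 to 597 in wildtype liver after hepatectomy, against 622 to 650 at 0 h, with Cd3d, Cd8b1, Nkg7 and Il2rb under background on all arrays. For 8 hepatocyte markers it was 87296 to 91881 in Socs2-null liver after hepatectomy, against 100030 and 101012 at 0 h, and 88029 to 96008 in wildtype liver after hepatectomy, against 100498 and 100759 at 0 h. For 8 sinusoidal endothelial markers it was 2397 to 2993 in Socs2-null liver after hepatectomy, against 3541 to 3731 at 0 h, and 2226 to 3188 in wildtype liver after hepatectomy, against 3367 to 3457 at 0 h. The 5 monocyte markers summed to 472 to 876 on all operated arrays, against 330 to 428 at 0 h. The other sums, after hepatectomy against 0 h, were 185 to 264 against 241 to 311 for 4 plasmacytoid dendritic cell markers, with Spib under background on all arrays, 3247 to 4197 against 3924 to 4407 for 8 stellate cell markers, and 314 to 395 against 319 to 384 for 5 cholangiocyte markers. Each sum follows the brightest markers of its list, and single markers differed in direction. Fga, a hepatocyte marker, rose in all 4 comparisons with 0 h, by 0.27 to 0.48 on the log2 scale. The T cell marker Cd3e and the endothelial marker Pecam1 rose at 36 h in both genotypes, by 0.52 and 0.44. Some of these calls were lost in up to 8 settings. Others of the same lists, such as Cyp2e1, Ccl5 and Kdr, fell in all 4 comparisons. The part of these cells in the changes of the members was not tested.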

How the data were processed

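Liver RNA of 12 pools was hybridized to Affymetrix arrays after labelling of 10 micrograms of total RNA per array, per the labels' protocols. The authors deposited 1 linear intensity per probe set and array (45141 probe sets), from 1 to 24717. How these were corrected for background, summarized or normalized is not given in the sources used. Array medians ran from 43.54 to 52.27, and no further scaling was applied. Intensities give no count depth, and 2 arrays per group limit the precision. The labels do not say that pools of a group differ in more than their animals.

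Of the probe sets, 28898 name 1 gene, 551 several and 15692 none. The model was fitted to log2(intensity + 16) without a filter, with limma 3.58.1 (group means, 6 residual degrees of freedom, eBayes with trend and robust, statmod 1.5.0, R 4.3.3), two-sided, for 12 comparisons, with Benjamini-Hochberg adjustment over all genes. Its code was tested on simulated data. Tables and figures were made with Python 3.11.15, pandas 2.3.3 and matplotlib 3.10.9. The members, the gene lists and the marker lists were chosen with earlier results of these data known, and the lists are not independent evidence of their direction. Members past the test were named first, then those with the smallest p or needed to describe a role, and from each list up to 4 genes per comparison with the smallest p. B cell, T and NK cell, plasmacytoid dendritic cell, macrophage, monocyte, neutrophil, endothelial, stellate, cholangiocyte and hepatocyte markers were summed as intensities.

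The labels do not say that replicate numbers pair pools across groups, so the model holds no pairing. Deviations of same-numbered pools correlated from -0.499 to 0.347 between groups, which cannot settle whether pools were paired. The results were recomputed after quantile normalization or median centring, with a pseudocount of 1 or 64, and without the 25% or 50% of genes that were dimmest. They were also recomputed with several probe sets averaged and without suffixed probe sets, whose names end in _a_at, _s_at or _x_at. Further settings were plain eBayes, the replicate number as a block, the compared arrays alone, and each array left out in turn.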

Additional observations from a re-analysis of the deposited data

How the results depend on the processing

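No value changed sign in the alternatives among the changes that passed the test. The median log2 change of the members in wildtype liver at 24 h against 0 h, -0.56, was -0.44 after centring on array medians, -0.43 with a pseudocount of 64 and -0.40 with the mean of all probe sets. The count of members that changed in Socs2-null liver at 24 h was 6, in place of 10, with only the arrays compared. The ISRE core with 1 further A in front was found in 4 of the 33 members with a window (12.1%), against 1.67% of all genes, in place of 16. With a replicate block the counts for Socs2-null and wildtype liver were 11 and 17 at 24 h and 10 and 11 at 36 h, and the block changed no count between genotypes. Without suffixed probe sets, which leaves 27 members, they were 8 and 13 at 24 h and 6 and 7 at 36 h.

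With each array left out, the number of members that changed ran from 5 to 15 in Socs2-null and 6 to 23 in wildtype liver at 24 h, and from 4 to 11 in Socs2-null and 3 to 13 in wildtype liver at 36 h. In Socs2-null liver at 24 h it was 5 without 0 h pool 2 and 6 without 24 h pool 2, and at 36 h 5 without 0 h pool 1, 4 without 0 h pool 2 and 5 without 36 h pool 1. In wildtype liver at 24 h it was 6 and 8 without 0 h pool 1 or 2 and 10 and 7 without 24 h pool 1 or 2, and at 36 h 3 without either 0 h pool and 4 without 36 h pool 2. Between genotypes at 24 h it was 0 to 1, the 1 being Cxcl10 without Socs2-null 24 h pool 1, and between 36 h and 24 h in wildtype liver 0 to 1, being Gbp3 without either Socs2-null 24 h pool and Gbp2 without wildtype 36 h pool 1. The median log2 change of the members then ran from 0.04 to 0.27 between genotypes at 24 h, from -0.57 to -0.45 and from -0.43 to -0.23 in wildtype liver at 24 h and 36 h, from 0.05 to 0.33 in Socs2-null liver at 36 h against 24 h, and, for the difference between genotypes in the change against 0 h, from 0.08 to 0.29 at 24 h and from 0.09 to 0.22 at 36 h. A group left with 1 array is assumed to vary like the others. Calls that held in every setting that measured the gene numbered 5 of 10 (Ifit3, Cxcl9, Irf7, Psmb8, Tapbp) in Socs2-null and 3 of 16 (Ifit3, Cxcl9, Psmb8) in wildtype liver at 24 h, and 4 of 9 (Ifi47, Cxcl9, Psmb8, Tapbp) in Socs2-null and 2 of 9 (Ifi47, Cxcl9) in wildtype liver at 36 h. Psmb8 and Irf7 have no probe set without a suffix. Of the 10 members read by a suffixed probe set, 9, with Psmb8 and Irf7 among them, bear _a_at and 1, Gbp2, bears _x_at. Low signal limits Mx1, Oas2, Ifit2, Gbp3 and Cxcl10, which lie under background on 1 to 5 arrays.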
